A study of Mus musculus with 24 samples.

Results

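The genes described here are those of mouse chromosome M, the circular DNA inside mitochondria, taken as every gene on that chromosome with a symbol starting mt-. The reference annotation (GENCODE vM21, GRCm38, the build also called mm10) places 37 genes there: 13 mRNA genes, 2 rRNA genes and 22 tRNA genes. The table of p16-3MR livers listed 21 of them among its 21755 genes, made up of 13 mRNA genes, 2 rRNA genes and 6 tRNA genes, and it did not list the other 16 tRNA genes. The table of wild-type livers listed 12 labels among its 12643, all for mRNA genes. Gene symbols in the wild-type table had lost some letters (lower-case b, e, g, l and m, as well as n, o, s and y, 9 in all), so each label was matched to the symbols that give it once those letters are removed. One such label fits both mt-Nd4 and mt-Nd4l and is written mt-Nd4/mt-Nd4l.

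RNA was extracted from whole livers of 24 mice and sequenced from the 3′ ends of transcripts by the Smart-3SEQ method, with 3 livers in each of 8 groups. In p16-3MR mice, a BAC transgene with the p16Ink4a promoter drives a cassette that includes a viral thymidine kinase, which converts the prodrug ganciclovir (GCV) into a poison for the cells that express it. Both p16-3MR treatment arms carried this transgene, and the wild-type mice did not. GCV against VEH thus covers the targeting of p16-expressing cells together with exposure to GCV in p16-3MR mice, and exposure to GCV alone in wild-type mice. The 4 p16-3MR groups were females and males that received monthly rounds of 5 daily injections into the abdomen of GCV (150 mg per kg in pH11 water by the labels; the methods of the study name another dose) or of the vehicle (VEH) alone, starting at 16 to 18 months of age. The 4 wild-type groups were females and males that received the same GCV or VEH rounds from 6 months of age, with the livers taken after 3 months. The labels call the wild-type mice age-matched, although the stated starting ages differ. All p16-3MR libraries belong to batch 1 and all wild-type libraries to batch 2. Genotype, starting age, length of treatment and batch therefore cannot be told apart, and no test was made between the tables.

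Chromosome M encodes subunits of the respiratory chain complexes I, III and IV and of the ATP synthase, and the rRNAs and tRNAs with which the mitochondrion translates those mRNAs. Transcription runs around each strand as a long precursor, and most mRNAs and rRNAs are freed from it by cutting out the tRNAs that lie between them. The mRNAs receive short poly(A) tails, which in some mRNAs also complete the stop codon, and the rRNAs receive shorter tails. All other subunits of these complexes are encoded in the nucleus, together with the polymerase, the processing enzymes and the mitochondrial ribosomal proteins. Liver cells hold many mitochondria, so mitochondrial transcripts are abundant in liver RNA. In bulk RNA a higher share of these transcripts can come from more of them per cell, from less RNA of other genes, or from another mix of cells, and these cannot be told apart here.

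A 3′-end library reads near the end of a transcript. The last 30 bases of the annotated genes that the results turn on are shown, 5′ to 3′, in GRCm38. An RNA can run past its annotated end, and where these RNAs end was not measured. The gene after mt-Co1 and the gene after mt-Nd5 lie on the opposite strand, so no tRNA of the same strand follows directly. The first pair are the rRNAs, the second pair are mt-Co1 and a nuclear look-alike with the same last bases, the next 3 end in the first base of a stop codon that the poly(A) tail completes, and the last pair are the complementary ends of mt-Nd5 and mt-Nd6. Capitals mark the stop codon in mt-Co1 and Gm29216, the last base in mt-Co3, mt-Nd4 and mt-Cytb, and the 14 bases over which mt-Nd5 and mt-Nd6 overlap on opposite strands.
mt-Rnr1, chrM:995-1024, plus strand: aagcatactggaaagtgtgcttggaataat
mt-Rnr2, chrM:2646-2675, plus strand: atacgtacaccctctaacctagagaaggtt
mt-Co1, chrM:6843-6872, plus strand: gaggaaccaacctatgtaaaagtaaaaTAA
Gm29216, chr1:24615706-24615735, minus strand: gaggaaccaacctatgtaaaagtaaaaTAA
mt-Co3, chrM:9361-9390, plus strand: tatacgtctccatttattgatgaggatctT
mt-Nd4, chrM:11515-11544, plus strand: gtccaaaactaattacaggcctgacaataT
mt-Cytb, chrM:15259-15288, plus strand: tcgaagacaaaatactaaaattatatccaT
mt-Nd5, chrM:13536-13565, plus strand: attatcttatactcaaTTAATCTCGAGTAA
mt-Nd6, chrM:13552-13581, minus strand: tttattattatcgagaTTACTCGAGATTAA

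Both rRNA genes and 12 of the mRNA genes lie on the plus strand. The 2 rRNA genes come first, mt-Rnr1 at 70 to 1024 and mt-Rnr2 at 1094 to 2675. The mRNA genes follow as mt-Nd1 (2751 to 3707), mt-Nd2 (3914 to 4951), mt-Co1 (5328 to 6872), mt-Co2 (7013 to 7696), mt-Atp8 (7766 to 7969), mt-Atp6 (7927 to 8607), mt-Co3 (8607 to 9390), mt-Nd3 (9459 to 9806), mt-Nd4l (9877 to 10173), mt-Nd4 (10167 to 11544), mt-Nd5 (11742 to 13565) and mt-Cytb (14145 to 15288). Only mt-Nd6 (13552 to 14070) is an mRNA gene of the minus strand. Reads in the 43 bases shared by mt-Atp8 and mt-Atp6, the 7 bases shared by mt-Nd4l and mt-Nd4, and the ends of mt-Nd5 and mt-Nd6 cannot be assigned from sequence alone, and whether the counting used the strand is not given in the sources used here.

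The authors deposited estimated counts per gene, which summed to 5005760 to 7160172 per p16-3MR liver and to 3084517 to 5667904 per wild-type liver. At these depths the 95% Wilson interval of a liver's mitochondrial share was at most 0.042 percentage points to either side, which covers counting error only. The GCV-treated p16-3MR female 33 stood apart from the other livers. It had 13409 genes with a count against 16804 to 18659 in the other 11 p16-3MR livers, its 10 highest genes took 73.7% of its counts against 20.9% to 31.3%, and 8 of those 10 were mitochondrial. The main results of the p16-3MR livers are therefore given with and without it. The other GCV-treated p16-3MR females also had fewer genes with a count (16804 and 16870) than every VEH-treated female (17147 to 17727). For genes outside chromosome M, GCV minus VEH in females was -634 without liver 33 (exact permutation p = 0.2, no overlap). The part of these gene numbers in the female differences was not tested. The 8 hepatocyte markers took 5.17% to 14.6% of the counts outside chromosome M in the p16-3MR livers, and the 5 muscle and fat markers that were listed summed to 0 to 9.64 per 1000000.

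Mitochondrial transcripts took 12.3% to 22.4% of the counts in 11 of the p16-3MR livers, and a far higher share in GCV-treated female 33. In GCV-treated p16-3MR females they were 15.8%, 64.0% and 22.4% of all counts (livers 31, 33 and 35), and in VEH-treated females 19.1%, 13.3% and 21.7% (livers 27, 28 and 29). In GCV-treated males they were 15.7%, 12.3% and 20.2% (livers 30, 32 and 34), and in VEH-treated males 12.5%, 21.9% and 21.3% (livers 24, 25 and 26). Apart from liver 33, the values of all 4 groups overlapped.

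The means of the female groups were 34.1% ± 26.2 (SD, n = 3) with GCV and 18.0% ± 4.34 with VEH, and those of the male groups 16.0% ± 3.98 with GCV and 18.6% ± 5.25 with VEH. The difference between GCV and VEH was 16.0 percentage points in females (two-sided exact permutation p = 0.4) and -2.55 points in males (exact permutation p = 0.5), where 0.1 is the smallest p that 3 against 3 livers can give. Without liver 33 the female difference was 1.06 points (exact permutation p = 0.9). When each liver was left out in turn, the male difference ranged from -5.57 to -0.653 points. The female response minus the male response was 18.6 points (exact permutation p = 0.225) and 3.61 points without liver 33 (exact permutation p = 0.48). None of these differences exceeded the spread between livers.

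The wild-type livers gave a lower and much tighter share. It was 4.75%, 4.57% and 4.62% in GCV-treated females 4, 5 and 6, and 5.08%, 4.60% and 4.64% in VEH-treated females 4, 5 and 6. It was 3.98%, 4.50% and 4.26% in GCV-treated males 1, 2 and 3, and 3.62%, 4.24% and 4.23% in VEH-treated males 1, 2 and 3. Every female liver lay above every male liver, while GCV and VEH livers of either sex overlapped.

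The wild-type share was 0.572 percentage points higher in females than in males over both treatments (exact permutation p = 0.005 within treatments, the smallest possible). GCV minus VEH was -0.125 points in wild-type females (exact permutation p = 0.6) and 0.219 points in wild-type males (exact permutation p = 0.4). When each liver was left out in turn, these ranged from -0.211 to 0.0285 and from 0.0137 to 0.352 points. The same female livers gave less of their counts to the 10 highest genes of each liver, by 7.55 percentage points (exact permutation p = 0.005). The share of those genes thus differed between the sexes in the opposite direction from the mitochondrial share, and its part in the sex difference was not tested. In p16-3MR livers the sex difference was 8.74 points (exact permutation p = 0.33), or 1.25 points without liver 33 (exact permutation p = 0.61). The rRNA and tRNA genes were not listed in the wild-type table, so the shares of the 2 tables do not cover the same genes.

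**Figure D1:**
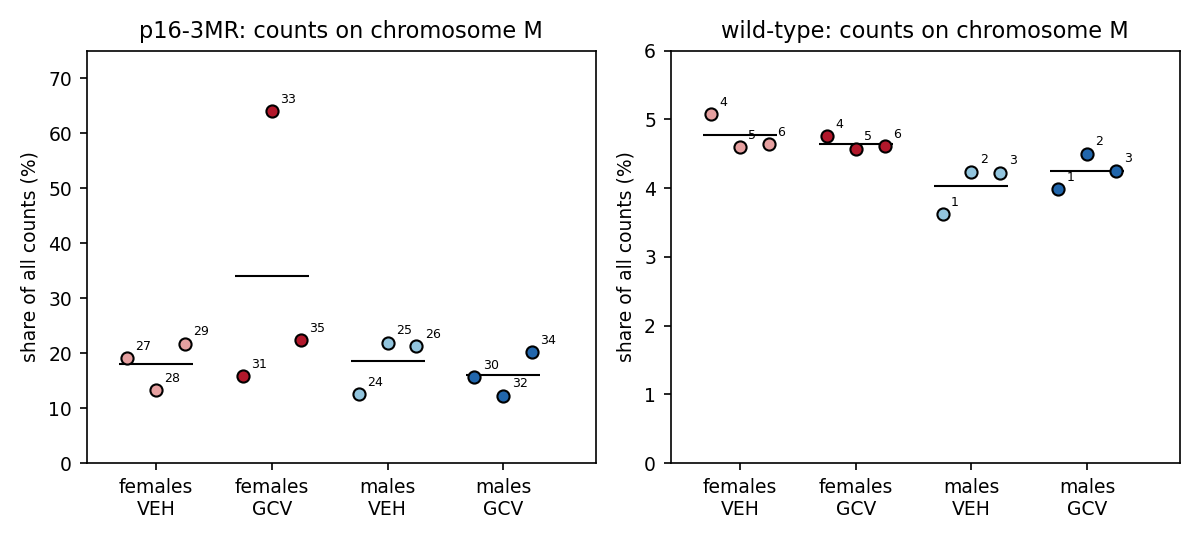
Share of all counts on mitochondrially encoded genes (percent, vertical axis) in each liver of the p16-3MR table (left) and the wild-type table (right), by sex and treatment. Points are livers with their numbers and horizontal lines are group means; liver 33 is at 64.0%, the other p16-3MR livers lie between 12.3% and 22.4%, and every wild-type female lies above every wild-type male.

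The 2 rRNAs, mt-Rnr1 of the small and mt-Rnr2 of the large mitochondrial ribosomal subunit, differed from the mRNAs in the p16-3MR livers. Together they took 1.71%, 9.61% and 0.919% of all counts in GCV-treated females 31, 33 and 35, against 0.499%, 0.536% and 0.831% in VEH-treated females 27, 28 and 29. All 3 GCV-treated females were above all 3 VEH-treated females. In males the values were 1.78%, 1.01% and 1.45% with GCV and 1.50%, 1.04% and 1.08% with VEH, and the groups overlapped.

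The female difference in the rRNA share was 3.46 percentage points (exact permutation p = 0.1, the smallest possible with 3 against 3 livers) and 0.691 points without liver 33 (exact permutation p = 0.1, the groups again not overlapping). The male difference was 0.208 points (exact permutation p = 0.7). The difference between the female and the male response was 3.25 points (exact permutation p = 0.215), or 0.483 points without liver 33 (exact permutation p = 0.42). Over both sexes GCV minus VEH was 1.83 points (exact permutation p = 0.055) and 0.449 points without liver 33 (exact permutation p = 0.065).

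mt-Rnr1 had 53315, 215755 and 29272 counts in GCV-treated females 31, 33 and 35 and 17260, 16665 and 26552 in VEH-treated females 27, 28 and 29. mt-Rnr2 had 50809, 265285 and 26103 counts in those GCV-treated females and 18475, 17466 and 31340 in those VEH-treated females. As a share of all counts, mt-Rnr1 did not overlap between the female groups (0.486% to 4.31% against 0.241% to 0.381%), whereas for mt-Rnr2 liver 35 (0.433%) lay below VEH-treated female 29 (0.450%). In males mt-Rnr1 ranged from 25502 to 50719 counts with GCV and from 26179 to 36521 with VEH, and mt-Rnr2 from 31712 to 55495 and from 29708 to 41852.

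Relative to the 13 mitochondrial mRNAs, rRNA counts were also higher in GCV-treated than in VEH-treated p16-3MR females. The ratio of rRNA to mRNA counts was 0.121, 0.177 and 0.0428 in livers 31, 33 and 35 (mean 0.113 ± 0.0672 SD), against a range of 0.0268 to 0.0421 in the VEH-treated females (0.0362 ± 0.00826). Liver 35 lay just above the highest VEH-treated female, and the other 2 lay well above. The males held ratios of 0.0984 ± 0.0266 with GCV and 0.0797 ± 0.0490 with VEH, so that the VEH-treated females were the lowest of the 4 groups.

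On the log2 scale the female difference of this ratio was 1.45, or 2.73-fold (exact permutation p = 0.1; adjusted p = 0.583 by Benjamini-Hochberg over 35 ratio tests in this table). Without liver 33 it was 1.02, or 2.03-fold (exact permutation p = 0.1, adjusted p = 0.389). The male difference was 0.43 (exact permutation p = 0.5). The difference between the sexes in response was 1.02 (exact permutation p = 0.305), or 0.584 without liver 33 (exact permutation p = 0.58). When each liver was left out in turn, this difference ranged from 0.547 to 1.61. The ratio of mt-Rnr2 to mt-Rnr1 counts averaged 1.09 over the 12 livers and stayed between 0.892 and 1.24. The 2 rRNAs, which lie next to each other with a single tRNA between them, thus varied together while their sum varied against the mRNAs.

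**Figure D2:**
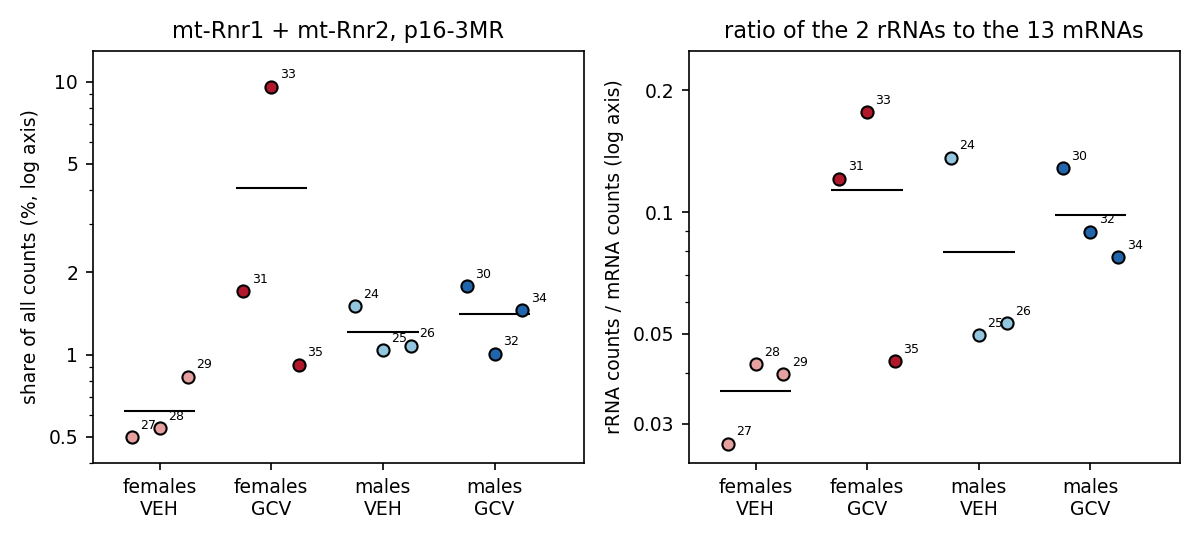
Left, share of all counts on mt-Rnr1 and mt-Rnr2 (percent, log axis); right, ratio of their counts to those of the 13 mitochondrial mRNAs (log axis), for each p16-3MR liver by sex and treatment, with numbered points and group means as lines. The 3 GCV-treated females lie above the 3 VEH-treated females in both measures, liver 35 by a small margin, and the male groups overlap.

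In counts divided by annotated length, the mitochondrial mRNA genes spanned a wide range although most are read from one precursor. In the p16-3MR livers mt-Atp6, a subunit of the proton channel of the ATP synthase, was highest at 53070 CPM per kilobase (41630 without liver 33), where CPM are counts scaled to a library of 1000000. It was followed on that scale by mt-Co2 of complex IV (22790), mt-Nd2 of complex I (22230), mt-Cytb of complex III (21970), mt-Co1 of complex IV (20700), mt-Nd4 (18330) and mt-Nd1 (16180) of complex I. Next came mt-Co3 of complex IV (11760) and mt-Nd5 (7434) of complex I. Lowest were mt-Atp8 (4872), mt-Nd3 (3647), mt-Nd4l (2210) and mt-Nd6 (464), and the rRNAs held 8986 for mt-Rnr1 and 6144 for mt-Rnr2. mt-Atp8 ends 43 bases inside mt-Atp6 and mt-Nd4l ends 7 bases inside mt-Nd4, with no tRNA gene between. Where such a pair stays a single RNA, a 3′-end library reads the downstream gene. The values of mt-Atp8 and mt-Nd4l therefore need not be transcript levels. Without liver 33 the rRNAs were at 5700 and 3657 on that scale, so that mt-Nd5 (6448) lay above mt-Rnr1 and mt-Atp8 (3931) above mt-Rnr2, and the order of the mRNAs from mt-Co2 to mt-Co1 changed within their spread (mt-Nd2 19430, mt-Co2 18890, mt-Co1 18850 and mt-Cytb 17180). mt-Co2, mt-Nd2, mt-Cytb and mt-Co1 lay closer together than their spread between livers, whose SD was 5211 for mt-Co1 without liver 33. In counts not divided by length the order differed: the highest mean counts per liver were those of mt-Atp6 (209537), mt-Co1 (189354), mt-Nd4 (148377), mt-Cytb (146633) and mt-Nd2 (134920), and without liver 33 mt-Co1 (177757) lay above mt-Atp6 (173138).

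The order was partly different in the wild-type livers. Among the labels of a single gene, mt-Co3 was highest per length there at 12630 CPM per kilobase, above mt-Atp6 (9440), mt-Co2 (7158) and mt-Nd2 (4793). mt-Nd4/mt-Nd4l fits genes of different lengths and has no value on that scale. mt-Nd1 (3609), mt-Nd3 (2890), mt-Cytb (2857), mt-Co1 (2031) and mt-Nd5 (1192) were in the middle. mt-Co1 is placed here without the counts of its look-alike Gm29216, which held 66.6% to 79.6% of the pair. mt-Atp8 (419) and mt-Nd6 (19.7) were the lowest on that scale. The limit given above for mt-Atp8 holds here too. In both tables mt-Nd6, the mRNA of the other strand, was the lowest mRNA. The tables differ in genotype, age, length of treatment and batch, and these orders are given side by side without a test. In counts not divided by length mt-Co3 (a mean of 43334 per liver), mt-Atp6 (28106) and mt-Nd2 (21905) were the highest labels in the wild-type livers. That order leaves Gm29216 out, and mt-Co1 summed with it had a mean of 57006, above mt-Co3. A 3′-end library reads each transcript near its end only, so counts per transcript need not follow length.

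In actual counts per liver, mt-Atp6 had 147133, 609923 and 204241 in GCV-treated p16-3MR females 31, 33 and 35 and 227990, 130144 and 274540 in VEH-treated females 27, 28 and 29. It had 138304, 112357 and 165721 in GCV-treated males 30, 32 and 34 and 105238, 192025 and 206824 in VEH-treated males 24, 25 and 26. Liver 33 was highest and the other 11 livers of the 4 groups overlapped. mt-Co1, the catalytic subunit of complex IV, had 120784, 316918 and 205073 counts in the GCV-treated females against 242773, 141867 and 267020 in the VEH-treated females. mt-Cytb, the only mitochondrially encoded subunit of complex III, had 99856, 427805 and 182432 counts against 174006, 108149 and 188700. For both genes liver 33 was again the highest, and the other 2 GCV-treated females lay within or below the VEH-treated range.

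Of the 21 listed genes, 5 had a higher share of all counts in every GCV-treated than in every VEH-treated p16-3MR female, and none had a lower share in every one. Over the whole table, 17.7% of the genes did not overlap between these groups, and 0.929% did so with GCV higher. Without liver 33 the same 5 of 21 did not overlap, against 25.2% of all genes and 7.47% with GCV higher. The 5 were mt-Rnr1, the complex I genes mt-Nd1, mt-Nd3 and mt-Nd6, and the tRNA gene mt-Ti, whose counts were only 0 to 5 per liver. mt-Nd6 was 0.0321%, 0.0506% and 0.0255% of all counts in livers 31, 33 and 35 and 0.0235%, 0.0123% and 0.0187% in livers 27, 28 and 29. mt-Nd1 was 1.39%, 3.70% and 1.57% against 1.23%, 0.761% and 1.24% in the same livers, and mt-Nd3 0.134%, 0.383% and 0.120% against 0.0977%, 0.0709% and 0.118%. The gaps in mt-Nd3 and mt-Nd6 were narrow next to the spread within groups. In p16-3MR males 0 of the 21 did not overlap in either direction, against 5.51% of all genes.

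The edgeR quasi-likelihood fit with TMM scaling over all 21755 genes called none of the genes of this table between GCV-treated and VEH-treated females at an adjusted p under 0.05 (0%), and so none of the 21. At an unadjusted p under 0.05 it held 8 of the 21, all with GCV higher, where 7.37% of all genes were at that level and 5.05% with GCV higher. The 13 mRNAs had log2 fold changes of 1.76 to 2.74 (median 2.54; SE 0.79 to 1.44), all higher with GCV, while the median over all genes was 0. Scaled by library totals alone the median over all genes was -0.58 and the 13 mRNAs kept a higher value with GCV (0.31 to 1.15). With TMM scaling again but without liver 33 they ranged from -0.09 to 0.86 (median 0.19), with 10 higher and 3 lower. None of the 21 was then at an unadjusted p under 0.05 (4.59% of all genes).

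Among the rRNAs and mRNAs, the rRNAs had the widest fitted differences. The log2 fold change was 4.49 for mt-Rnr1 (SE 1.37, unadjusted p = 0.00561, edgeR adjusted p = 0.646) and 4.61 for mt-Rnr2 (SE 1.44). Scaled by library totals alone they were 2.68 (SE 0.94) and 2.74 (SE 0.98), with edgeR adjusted p = 0.745 for both. With TMM scaling but without liver 33 they were 1.43 (SE 0.70) and 1.18 (SE 0.69), with edgeR adjusted p = 0.842 for both. mt-Nd3 had 2.74 (SE 0.93) with all livers and 0.62 (SE 0.57) without liver 33, and mt-Nd6 had 2.37 (SE 0.79) and 0.86 (SE 0.59). mt-Co1 had 1.80 (SE 1.25) and -0.06 (SE 1.01). DESeq2 on the same counts called 90 genes (0.414%), including mt-Rnr1 (4.60, adjusted p = 0.00184) and mt-Rnr2 (4.72, adjusted p = 0.00213). It gave no p to mt-Ts1, mt-Co2, mt-Atp8, mt-Atp6, mt-Co3 and mt-Nd3 in any contrast of this table and no adjusted p to the other 5 tRNA genes in this one, so these could not be called by DESeq2, and the other 8 members were not called. The size of these differences thus rested on liver 33 and on the scaling. The TMM factor was 0.259 in liver 33 and 0.850 to 1.80 in the other p16-3MR livers.

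In p16-3MR males the fit called 0 of 21755 genes (0%; 1.91% at an unadjusted p under 0.05; 5 genes, or 0.023%, by DESeq2). The mRNAs had log2 fold changes of -0.54 to 0.02, with 12 lower and 1 higher with GCV, each well within its error (SE 0.75 to 1.36). The female minus male response likewise had 0 calls with edgeR (0%), although 5 of the 21 genes stood at an unadjusted p under 0.05 against 3.78% of all genes, and none of them did without liver 33 (3.09%). DESeq2 called 3 genes there (0.0138%), none of them among the 15 members it gave an adjusted p. Between females and males over both treatments 66 genes were called (0.303%; 196, or 0.901%, by DESeq2), none of them mitochondrially encoded, although DESeq2 gave 9 of the 21 no adjusted p. No mitochondrial gene had non-overlapping shares (1.01% of all genes, 0.133% higher in females; without liver 33 again 0 of 21, against 1.33% and 0.382%). In that contrast 3 of the 21 were at an unadjusted p under 0.05 with all livers (7.05% of all genes) but 0 without liver 33 (7.29%).

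**Figure D3:**
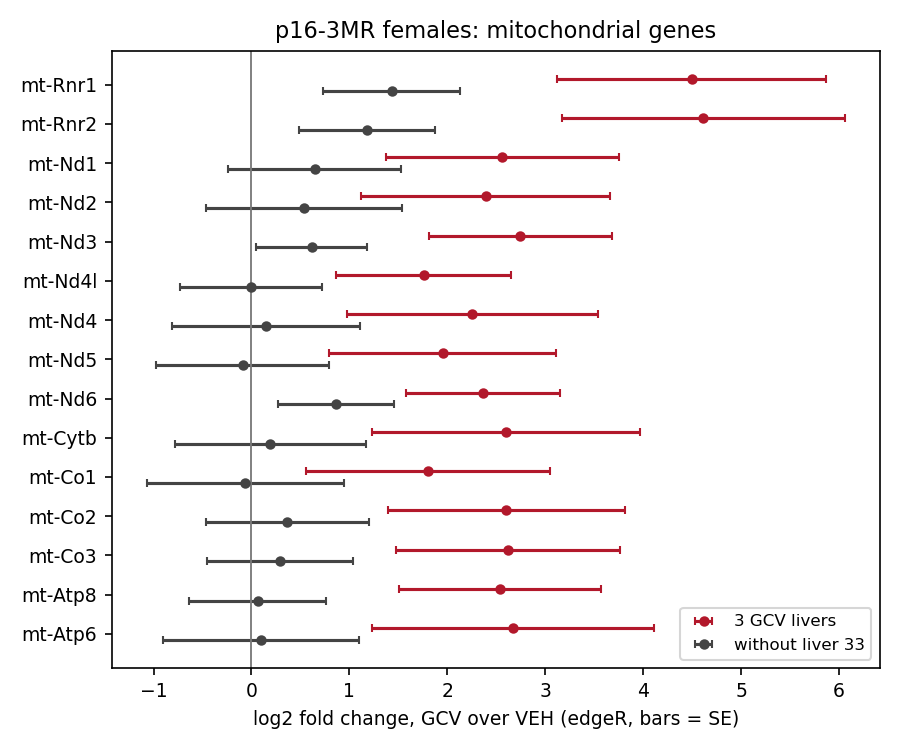
log2 fold change of GCV-treated over VEH-treated p16-3MR females for the 2 rRNAs and 13 mRNAs, from edgeR with TMM scaling, with bars of 1 standard error. Red points are the fit with all 12 livers and dark points the fit without liver 33; the mRNAs lie at 1.76 to 2.74 in the first and at -0.09 to 0.86 in the second, and no gene passed the adjusted threshold in either.

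The 6 listed tRNA genes had few counts, 7 to 24 summed per liver and 94 in liver 33. Mature tRNAs carry no poly(A) tail. mt-Ts1, the only tRNA gene with a mean of at least 10 counts, had 79 counts in liver 33 and 4 to 13 in the others. mt-Ts1 reached that mean only through liver 33, a GCV-treated female. It lies on the strand opposite to mt-Co1 and overlaps its last 3 bases. Its log2 fold change in females was 4.33 (SE 1.28, edgeR adjusted p = 0.646), and 0.22 (SE 0.78) without liver 33. No conclusion is drawn from the first value, because the liver behind it also carried the gene past the naming rule. mt-Tl1, mt-Ti, mt-Tw, mt-Td and mt-Te had at most 10 counts in any liver.

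Within the mitochondrial counts some genes kept a nearly fixed proportion over the livers and others did not. In the p16-3MR livers the proportion of mt-Atp6 varied 1.30-fold between the lowest and the highest liver (SD of its log2 value 0.11), that of mt-Nd4 1.34-fold and that of mt-Co3 1.47-fold. mt-Nd4l (1.99-fold), mt-Nd5 (2.36-fold) and mt-Nd6 (2.57-fold), which are complex I genes, varied more. Among rRNAs and mRNAs the rRNAs varied most, mt-Rnr1 5.34-fold and mt-Rnr2 6.13-fold, and still 4.43-fold and 4.75-fold without liver 33. In the wild-type livers mt-Nd4/mt-Nd4l (1.14-fold), mt-Co2 (1.20-fold) and mt-Cytb (1.24-fold) varied least, and mt-Nd5 (2.83-fold), mt-Atp8 (3.15-fold) and mt-Nd6 (9.57-fold) most. mt-Nd5 and mt-Nd6 were thus among the most variable mRNAs in both tables, and mt-Nd6 had only 13 to 117 counts per wild-type liver.

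Each gene was also compared with the sum of the other mitochondrial genes over livers, both per 1000000 counts outside chromosome M and on a log2 scale. The values share a library and a denominator, so a positive relation is partly built in, and the coefficients describe these livers. In the 11 p16-3MR livers without liver 33, Pearson's r of the 13 mRNAs ran from 0.739 (mt-Nd5) to 0.972 (mt-Atp6), and Spearman's rho from 0.673 to 0.927. Leaving out the 2 livers farthest from the median gave r of 0.538 to 0.958. All 13 passed at an adjusted p under 0.05 (100000 permutations, Benjamini-Hochberg over the 15 genes compared; highest adjusted p of r 0.015), and the deviations from group means gave r of 0.808 to 0.983.

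For the rRNAs the coefficients in those 11 livers were near 0. mt-Rnr1 had r = -0.021 (permutation p = 0.949, adjusted p = 0.949) and rho = -0.064 (permutation p = 0.860), and mt-Rnr2 had r = -0.101 (permutation p = 0.764, adjusted p = 0.818) and rho = -0.209 (permutation p = 0.539). With liver 33 included, r was 0.812 for mt-Rnr1 (permutation p = 0.0442) and 0.809 for mt-Rnr2 (permutation p = 0.0519), with rho of 0.182 and 0.070. Without the 2 farthest livers r was -0.098 and -0.127, so the relation over 12 livers rested on those livers.

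The relations among wild-type mRNAs were looser over a narrower range of levels. Pearson's r of the 12 labels ran from 0.191 (mt-Nd5) to 0.843 (mt-Nd4/mt-Nd4l) with a median of 0.742. By r, 9 of the 12 passed at an adjusted permutation p under 0.05, and by rho 6. mt-Nd5 (permutation p = 0.553) and mt-Atp8 (r = 0.409, permutation p = 0.187) were among those that did not. mt-Cytb passed by r (0.762, permutation p = 0.00517) but its r without the 2 farthest livers was 0.185. Within group means the wild-type r ran from 0.053 to 0.843, so part of the pooled relation followed the differences between groups.

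The proportions of the complexes were compared as ratios of summed counts. mt-Cytb relative to the 3 complex IV mRNAs was 0.522 ± 0.112 (SD, n = 3) in GCV-treated and 0.449 ± 0.0151 in VEH-treated p16-3MR females, and 0.388 ± 0.126 and 0.304 ± 0.0695 in GCV-treated and VEH-treated males. In p16-3MR livers the ratio was higher in females than in males by 0.53 on the log2 scale (exact permutation p = 0.02, adjusted p = 0.438 over 35 tests; 0.45 without liver 33, exact permutation p = 0.065). In wild-type livers it was 0.174 ± 0.00611 and 0.174 ± 0.00949 in GCV-treated and VEH-treated females and 0.191 ± 0.00840 and 0.193 ± 0.00161 in males. There the ratio was lower in females, by a log2 difference of -0.14, or 0.908-fold (exact permutation p = 0.005, adjusted p = 0.1 over 20 tests). The sex difference of this ratio thus had opposite signs in the 2 tables, neither passed after adjustment, and it was not tested between tables.

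In wild-type livers the ratio with the widest differences was that of mt-Nd6, which had few counts there, to the mRNAs of the other strand. It was higher in females than in males by 1.09 on the log2 scale, or 2.13-fold (exact permutation p = 0.03, adjusted p = 0.3), and higher with GCV in females by 1.34 (exact permutation p = 0.2, groups overlapping). mt-Atp6 and mt-Atp8 over complex IV mRNAs was higher in p16-3MR females than in males by 0.21 on the log2 scale (exact permutation p = 0.025, adjusted p = 0.438) and by 0.11 without liver 33 (exact permutation p = 0.08). Complex I over complex IV mRNAs was 0.16 higher with GCV in p16-3MR females (exact permutation p = 0.1, no overlap; 0.19 without liver 33, exact permutation p = 0.2), and 0.10 once mt-Co1 was summed with its look-alike Gm29216 (exact permutation p = 0.5; this alternative was chosen after seeing the data). In wild-type males it was 0.18 higher with GCV (exact permutation p = 0.1, no overlap), and the female minus male response was -0.27 (exact permutation p = 0.05, adjusted p = 0.333). mt-Nd6 over the 12 mRNAs of the other strand was 0.23 higher with GCV in p16-3MR males (exact permutation p = 0.1, no overlap). In p16-3MR females it was 0.40 higher with GCV (exact permutation p = 0.6) and 0.68 higher without liver 33 (exact permutation p = 0.3), the groups overlapping in both. Over both sexes it was 0.31 higher (exact permutation p = 0.125) and 0.45 higher without liver 33 (exact permutation p = 0.025, adjusted p = 0.389). No ratio passed at an adjusted p under 0.05 in either table.

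Nuclear DNA holds copies of mitochondrial sequence, and reads of such sequence can be counted at either place. A search of the annotated transcripts with blastn found 11 nuclear genes with at least 95% identity to chromosome M over at least 50% of their length. Of these, 7 lie on chromosome 1 within 4663 bases (24611535 to 24616197), all annotated as unprocessed pseudogenes, and 5 of the 11 were identical to chromosome M over their aligned length. The p16-3MR table listed 6 of the 11 and 5 were in the wild-type table. Of the 5 identical ones, 4 were in neither table.

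Gm29216, at 24615706 to 24616197 on the minus strand of chromosome 1, matches the last part of mt-Co1 (6390 to 6872) with 1 mismatch in 483 aligned bases. Its last 30 bases, shown above, are identical to those of mt-Co1. In wild-type livers it held 43111 ± 7994 counts (SD, n = 12), which was 66.6% to 79.6% of the counts of the pair, lowest in VEH-treated female 4. In p16-3MR livers it held 1585 to 66905 counts, or 0.767% to 17.4% of the pair, lowest in liver 35 and highest in liver 33. Reads of the sequence that this pair shares can be assigned to either gene, so the level of mt-Co1 is uncertain in both tables. The pair together had a mean of 57006 counts in wild-type livers, more than mt-Co3 with 43334.

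Gm28439, at 24611535 to 24612410 on the minus strand of chromosome 1, is identical to mt-Nd4 from 10167 to 11042, which leaves out the 3′ end of mt-Nd4. It was listed only in the p16-3MR table. It had an estimated 0 counts in GCV-treated females 31 and 33 and in GCV-treated male 34, and 2979 to 43389 in the other livers. Because its whole sequence is shared with mt-Nd4, a 0 sets no bound on its RNA. As a share of the pair it was 18.7% to 20.8% in VEH-treated females and 0%, 0% and 13.9% in GCV-treated females 31, 33 and 35. In males it was 3.69% to 17.9% with VEH and 0% to 10.2% with GCV. All 3 GCV-treated females were below all 3 VEH-treated females. mt-Nd4 itself had 106523 and 335758 counts in livers 31 and 33, where Gm28439 was at 0. How reads of the shared sequence were divided was not tested, and the counts of mt-Nd4 are uncertain by the size of its look-alike.

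The remaining look-alikes took little. Gm13340 held 1.11% to 1.30% of the counts of its pair with mt-Co1 in p16-3MR livers, Gm13339 0.318% to 0.721% of its pair with mt-Nd2, Gm13341 0.142% to 0.232% with mt-Co2 and Gm4076 0.0927% to 0.182% with mt-Nd5. In wild-type livers Gm28438 had a mean of 125 counts, 1.68% to 4.20% of its pair with mt-Nd3. Added to the mitochondrial share, all look-alikes left the p16-3MR female difference at 16.1 points (exact permutation p = 0.4), or 0.800 points without liver 33 (exact permutation p = 0.9), and brought the wild-type sex difference to 0.782 points (exact permutation p = 0.005).

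**Figure D4:**
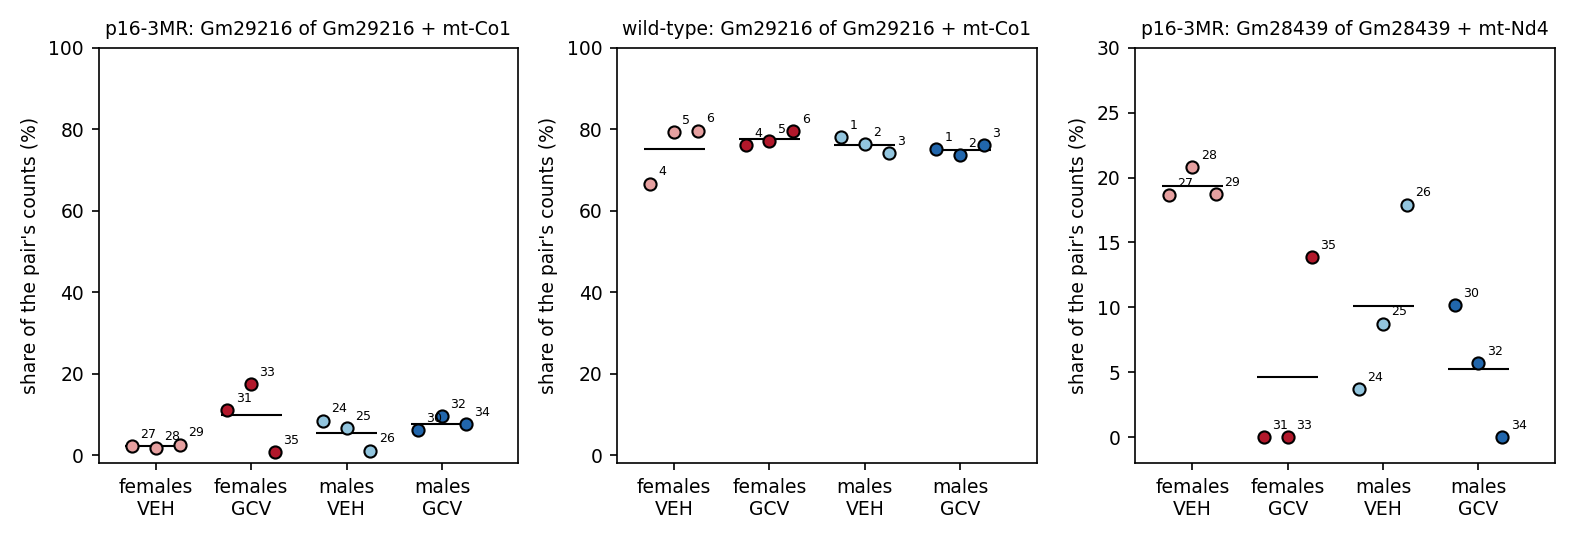
Share of a pair's counts that went to the nuclear look-alike (percent) in each liver: Gm29216 against mt-Co1 in the p16-3MR table (left) and the wild-type table (middle), and Gm28439 against mt-Nd4 in the p16-3MR table (right). Points are livers and lines group means; Gm29216 took 0.767% to 17.4% in p16-3MR and 66.6% to 79.6% in wild-type livers, and Gm28439 was at 0 in 3 GCV-treated p16-3MR livers.

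In wild-type livers no mitochondrial label passed the test between GCV and VEH in either sex in the edgeR fit of all 12 livers without a replicate block. With such a block mt-Nd6 passed in females and mt-Nd5 in males, as given at the end with the share of all genes called. The edgeR fit called 1 of 12643 genes between GCV-treated and VEH-treated females (0.00791%), and none of the 12 mitochondrial labels, where 4.56% of all genes were at an unadjusted p under 0.05 and DESeq2, which gave mt-Nd6 no adjusted p, called 17 (0.134%). The 12 labels had log2 fold changes of -0.43 to 1.56, 6 higher and 6 lower. In males 0 genes were called (0%; 5.06% at an unadjusted p under 0.05; 1 by DESeq2), and the labels ranged from -0.05 to 0.50, 9 higher and 3 lower. No label had non-overlapping shares of counts in females, against 10.1% of all genes, and in males mt-Nd1 and mt-Nd4/mt-Nd4l did, both higher with GCV, against 7.97% of all genes.

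mt-Nd6 was the widest exception. It had 31, 117 and 112 counts in GCV-treated wild-type females 4, 5 and 6, against 38, 28 and 33 in VEH-treated females 4, 5 and 6. It had 13, 37 and 19 counts in GCV-treated and 15, 33 and 29 in VEH-treated males 1, 2 and 3. Livers 5 and 6 of the GCV-treated females were high, and GCV-treated female 4 lay within the VEH-treated range. The log2 fold change in females was 1.56 (SE 0.38, unadjusted p = 0.000524), which did not pass over all genes (edgeR adjusted p = 0.320). It passed in a fit of the 6 female livers alone (1.55, edgeR adjusted p = 0.0272), which called 0.348% of all genes, and without GCV-treated female 4 (1.97, edgeR adjusted p = 0.0210), where 2 genes were called in all (0.0158%), while without GCV-treated female 5 it was 1.02 (edgeR adjusted p = 1). The female minus male response of mt-Nd6 was 1.48 (unadjusted p = 0.0186, edgeR adjusted p = 0.981), in a fit that called 1 gene in all (0.00791%; 4.45% at an unadjusted p under 0.05), not mitochondrially encoded.

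mt-Nd5, whose annotated end overlaps that of mt-Nd6, and mt-Atp8 stood out in VEH-treated wild-type female 4. mt-Nd5 had 22452 counts there against 6487 and 5224 in VEH-treated females 5 and 6, and 8288, 5684 and 7293 in GCV-treated females. mt-Atp8 had 948 counts in that liver against 206 and 198 in the other 2 VEH-treated females, and 285 to 343 in GCV-treated females. The log2 fold changes of mt-Nd5 were -0.43 in females (SE 0.28) and 0.47 in males (SE 0.28), and the female value was 0.28 without VEH-treated female 4.

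Between the sexes of the wild-type mice, over both treatments, 1004 of 12643 genes were called (7.94%; 3.89% higher and 4.05% lower in females), among them 3 of the 12 mitochondrial labels. DESeq2 called 1039 genes (8.22%), with the same 3 labels. With TMM scaling mt-Cytb was lower in females, with a log2 fold change of -0.25 (SE 0.058, edgeR adjusted p = 0.00749), and so was mt-Nd4/mt-Nd4l with -0.22 (SE 0.058, edgeR adjusted p = 0.0189), but both were higher in females, at 0.082 and 0.11 and not called, when scaled by library totals alone. mt-Nd6 was higher in females under both scalings, with 1.01 (SE 0.29, edgeR adjusted p = 0.0335) and 1.33 (SE 0.29). The call of mt-Nd6 was lost without GCV-treated female 5 (0.74, edgeR adjusted p = 0.113) and in 5 other fits that left out 1 liver. The number of labels called was 7 without VEH-treated female 4, where 7.92% of all genes were called. It was 1 without GCV-treated female 5 (6.52% of all genes), VEH-treated female 6 (7.02%) or VEH-treated male 3 (6.31%).

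The scaling decided the direction of most other labels as well. TMM gave 10 of 12 labels a lower and 2 a higher value in females, and library totals alone gave 11 a higher value, while the median over all genes moved from 0.03 to 0.35 on the log2 scale. With library totals 6 labels were called, all higher in females: mt-Nd1 (0.34), mt-Co2 (0.27), mt-Nd3 (0.25), mt-Atp6 (0.25), mt-Co3 (0.19) and mt-Nd6 (1.33). The same fit called 28.9% of all genes, and 27.2% of all genes as higher in females. The mitochondrial mRNAs other than mt-Nd6 were below that median in both scalings. The TMM factors were 1.11 to 1.14 in females and 0.835 to 0.975 in males.

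As shares of all counts, mt-Nd1 and mt-Co2 did not overlap between the sexes, against 13.4% of all genes (12.6% higher in females). mt-Nd1 was 0.363% to 0.403% of all counts in the 6 females and 0.294% to 0.331% in the 6 males. mt-Co2 was 0.507% to 0.556% in females and 0.414% to 0.468% in males. mt-Cytb overlapped, at 0.327% to 0.348% in females and 0.284% to 0.337% in males. The mitochondrial share of counts was thus higher in wild-type females while no mRNA other than mt-Nd6 stood above the median gene.

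**Figure D5:**
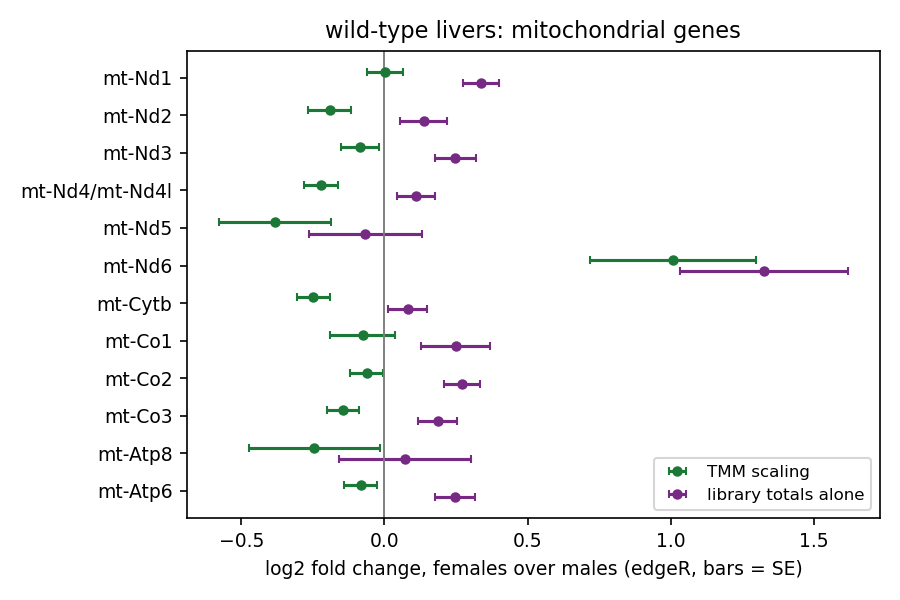
log2 fold change of females over males in wild-type livers for the 12 mitochondrial labels, from edgeR with TMM scaling (green) and with library totals alone (purple), with bars of 1 standard error. With TMM 10 labels are below 0 and with library totals 11 are above 0; mt-Nd6 is above 0 under both.

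The nuclear genes that serve mitochondrial DNA and RNA were counted from lists. In p16-3MR females none of 14 genes for the maintenance of mitochondrial DNA, 9 for its transcription, 27 for processing and stability of its RNA and 12 for translation passed the adjusted edgeR threshold, and their median log2 fold changes were 0.11, 0.26, 0.18 and -0.07 (-0.08, 0.12, 0.16 and -0.05 without liver 33). None of these genes was at an unadjusted p under 0.05 there, where 7.37% of all genes were. Rrm2b, which supplies deoxynucleotides for mitochondrial DNA, had -1.50 (SE 0.74). Slirp, which protects mitochondrial mRNAs with its partner Lrpprc, had 0.79 (SE 0.40), and Supv3l1, a helicase of mitochondrial RNA decay, had 0.74 (SE 0.41), and with library totals alone both were near 0 (-0.01 and -0.06). The 13 mitochondrial mRNAs had a median of 2.54 in the same fit.

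Nuclear subunits of the respiratory chain had positive fitted values more often than negative ones in p16-3MR females under TMM, though none was called. Of 36 complex I subunits 35 had a positive log2 fold change (median 0.61), 5 of them at an unadjusted p under 0.05, including Ndufa2 (1.33, SE 0.45) and Ndufb4 (1.29, SE 0.52). With library totals alone 18 of the 36 were positive (median 0.01, beside an all-gene median of -0.58), and with TMM but without liver 33 again 35 (median 0.62). Over all genes 46.1% had a positive value with TMM, 23.1% with library totals alone and 43.0% without liver 33. Complex III subunits were positive in 8 of 9 (median 0.21), complex IV in 10 of 11 (0.44) and the ATP synthase in 13 of 16 (0.43), and without liver 33 the medians were 0.50, 0.67 and 0.66. With library totals alone these lists were positive in 3 of 9, 6 of 11 and 6 of 16, with medians of -0.20, 0.00 and -0.04. In males the medians of these 4 lists were 0.07, -0.11, -0.08 and -0.02. The mitochondrial mRNAs of these complexes had a median of 2.54 with liver 33 and 0.19 without it.

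The 72 listed nuclear subunits summed to 4721 per 1000000 counts outside chromosome M in liver 33, the lowest of the p16-3MR livers, and to 6058 to 13200 in the other 11. The 78 mitochondrial ribosomal protein genes summed to 1113 in liver 33 and to 1675 to 2944 in the others. Liver 33 was thus the lowest for both sums, but not for the 9 complex III subunits taken alone, whose lowest sum (859) was in another liver. Its RNAs that stay in the nucleus were by contrast the highest: 5 such RNAs, among them Malat1, Neat1 and Kcnq1ot1, summed to 5471 per 1000000 there and to 1184 to 3595 in the other livers. In the female fit Kcnq1ot1 had a log2 fold change of 2.57 (SE 0.59) with liver 33 and 1.66 (SE 0.50) without it (edgeR adjusted p = 0.646 and 0.842). Markers of Kupffer cells, the liver macrophages, moved with the female groups too, the 6 summing to 137 to 325 per 1000000 with GCV and to 375 to 1167 with VEH, and none of the 6 was at 0 in any female. Their median log2 fold change was -1.59 (-1.87 without liver 33), and none was called. Markers of sinusoidal endothelium, the lining of the liver capillaries, were also apart between the female groups, with sums of 126.5 to 179.9 with GCV and 277.5 to 383.3 with VEH, and so were those of stellate cells, which store vitamin A, with 182.2 to 419.1 and 480.4 to 548.6. Their median log2 fold changes were -0.50 and -0.56. The sums of the T cell, B cell, neutrophil and cholangiocyte (bile duct cell) markers overlapped between the female groups, with median log2 fold changes of -1.94, -1.87, -0.83 and 0.96. No marker of these 6 lists was called. Liver 33 had the lowest B cell sum of the p16-3MR livers (18.89 against at least 75.01). Its stellate cell sum (182.2 against at least 217.7) and cholangiocyte sum (30.56 against at least 44.73) were the lowest too. The part of these other RNAs in the mitochondrial share and in the rRNA values was not tested.

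Between wild-type sexes, several nuclear subunits were called lower in females with TMM scaling. Over all genes 7.94% were called, 4.05% lower in females. The listed genes called were 3 of 19 listed complex I subunits (Ndufv3 -0.29, Ndufa13 -0.22 and Ndufa2 -0.21), 2 of 8 of complex III (Uqcr10 -0.28 and Uqcr11 -0.25) and 1 of 8 of complex IV (Ndufa4 -0.23), with edgeR adjusted p of 0.0209 to 0.0489, and all 6 had values of 0.04 to 0.12 and no call with library totals alone. None of 12 ATP synthase subunits was called with TMM (median -0.09). The wild-type table also held 20 listed genes for processing and stability of mitochondrial RNA and 7 listed regulators of mitochondrial biogenesis. Of these, Hsd17b10, a subunit of the enzyme that trims the 5′ ends of mitochondrial tRNAs, was lower in females under both scalings (-0.69, SE 0.077, edgeR adjusted p = 1.4e-06; -0.37 with library totals). Ppargc1a, the coactivator that drives mitochondrial biogenesis, was higher under both (0.61, SE 0.14, edgeR adjusted p = 0.00823; 0.94 with library totals). The median TMM differences of these nuclear lists, -0.07 for complex I, -0.18 for complex III and -0.17 for complex IV, lay near the median of -0.12 over the 12 mitochondrial labels.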

How the data were processed

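Smart-3SEQ libraries of mouse liver were measured in 2 tables, of 12 p16-3MR and 12 wild-type livers. The authors deposited estimated counts per gene, whole numbers made with Trim Galore 0.6.10, FastQC 0.11.9 and Salmon 1.10.3 on mm10, after removing genes with fewer than 3 reads. Salmon divides reads of shared sequence between genes by estimation, so counts of near-identical genes are uncertain. Symbols were found for 21698 of 21755 and 10497 of 12643 rows.

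Each table was fitted alone on all 12 livers, with a mean per group, by the edgeR 4.0.16 quasi-likelihood test with TMM scaling (R 4.3.3), two-sided, with Benjamini-Hochberg adjustment over all genes; called means an adjusted p under 0.05. Shares and ratios were compared by two-sided exact permutation of livers, within treatments or sexes where both were pooled, and relations by 100000 permutations (scipy 1.17.1). Log2 levels used a prior count of 0.5. Look-alikes were found with blastn 2.17.0 against GENCODE vM21 transcripts. The fits were tested on simulated data. Alternatives were DESeq2 1.42.0, limma 3.58.1 (voom with weights), library totals, DESeq2 size factors, scaling outside chromosome M, filterByExpr, a replicate block, fits of 1 sex and leaving out each liver.

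All rRNA and mRNA members are named. tRNAs and look-alikes are named at a mean of at least 10 counts, and mt-Ti, mt-Tl1, mt-Tw, mt-Td and mt-Te as listed. Of each list, called genes and up to 4 genes with the smallest p are named. Malat1 and Neat1 fall under the same rule. The members and lists were chosen with earlier results of these data known.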

Additional observations from a re-analysis of the deposited data

How the results depend on the processing

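Of the tests of shares and counts of calls, 261 values under alternatives kept their direction and side of the threshold, 11 moved and 1 reversed. Exact tests within 1 sex cannot give a p under 0.1, so their side of the threshold was fixed beforehand and shows no stability. In p16-3MR females DESeq2 called 2 mitochondrial genes (mt-Rnr1 and mt-Rnr2) where edgeR called 0, and the median log2 fold change of the 21 was 2.56, 0.98 with library totals, 0.75 with limma-voom weights and 0.21 without liver 33. The female share difference ranged from 1.06 to 25.2 points when each liver was left out in turn, and in wild-type females from -0.211 to 0.0285. Calls in wild-type females were 1 in a fit of the 6 female livers alone (0.348% of all genes) and 0 to 1 when each liver was left out (1 without GCV-treated female 4, with 0.0158% of all genes). Between wild-type sexes library totals alone called 6 labels (28.9% of all genes), and leaving out each liver gave 1 to 7 (6.23% to 9.94% of all genes). Under library totals alone the sex differences of mt-Cytb (0.082), mt-Nd4/mt-Nd4l (0.11), mt-Co3 (0.19) and mt-Nd2 (0.14) reversed. When each liver was left out, mt-Co1 in p16-3MR females ranged from -0.062 to 2.27 and mt-Nd5 in wild-type females from -0.72 to 0.28. Apart from what each alternative changes by construction, the cause was not tested.

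Replicate numbers are shared between wild-type treatments only. Deviations of same-numbered livers correlated at -0.045, -0.057 and 0.0018 in females, so they did not move together there. In males they correlated at 0.196, 0.283 and -0.066, against -0.349 to 0.170 for livers of different numbers. These few values do not settle whether the numbers pair the male livers. With a replicate block 1 label was called in females (mt-Nd6, 1.37), 1 in males (mt-Nd5, 0.47) and 1 in the difference of responses (mt-Nd5, -0.71), with 0.838%, 0.538% and 0.625% of all genes called, against 0 labels without it. No paired analysis was possible for the p16-3MR livers because their groups share no numbers. Precision was limited by 3 livers a group, for which the smallest exact p is 0.1, and by the spread between livers. As the coefficient of variation that edgeR fitted in common to all genes, that spread was 55.8% in p16-3MR and 16.6% in wild-type livers. The low counts of mt-Nd6 in wild-type livers and of the tRNAs also limited precision.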
